A study of Rattus norvegicus with 4 samples.

Results

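Loci named after genes of the cytoskeleton, its motors and cell adhesion were examined in a long noncoding RNA (lncRNA) profile of rat cortical astrocytes. Each locus is a listed noncoding transcript, or several, at the gene whose name it bears. Members were chosen by gene name, with earlier results of these data known. The prefixes included Map1, Map4, Tub, Kif, Dync, Dctn, Act, Myo, Myh, Daam, Dst, Phldb, Plxn, Sema, Itg and Adam. Transcripts of 1 name on 1 chromosome were summed. The rule gave 107 loci made of 153 transcripts, of 17290 loci made of 20524 transcripts in all.

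The cells were cortical astrocytes of newborn Wistar rats, grown on coverslips above neuron cultures and held apart from them. The OGD group (2 libraries) was kept without glucose at 1% oxygen for 45 min (oxygen-glucose deprivation) and collected after 24 h of reoxygenation in normal medium, and its titles call this ischemic preconditioning. The control group (2 libraries) was labelled untreated, and both groups shared the co-culture with neurons. Nothing in the labels ties the replicates to separate cultures. A p-value here thus sets the group difference against a library-to-library spread that may be purely technical.

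Astrocytes hold their shape and extend their processes through microtubules, actin filaments and intermediate filaments. Kinesins and dynein carry cargo along microtubules, and myosins pull on actin. Integrins, cadherins, and the plexin and ephrin receptors link this scaffold to the matrix, to neighbouring cells and to guidance cues, and ADAM proteases act at the cell surface. Astrocytes are known to remodel their processes and adhesions after injury and lack of oxygen.

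The lncRNA counts per library lay between 2513804 and 2646300, and 3 counts were worth 1.13 to 1.19 CPM (counts scaled to a common library size). Of the 107 names, 101 were symbols in RefSeq (GRCr8), 100 of them protein-coding genes, so counts at these loci could include reads of the messenger RNA. Among names fixed as astrocyte markers, 4 of 8 had a listed locus, and the summed level was 30.9 to 64.4 CPM in OGD libraries and 34.3 to 51.0 CPM in control libraries. Gfap, the astrocyte intermediate filament gene, had 139 and 51 counts in OGD libraries and 100 and 61 in control libraries, while Slc1a2, a glutamate transporter gene, had at most 4 in any library. Neuron names, with 2 of 7 listed, summed to 107 to 111 CPM in OGD libraries and 81.9 to 110 CPM in control libraries. Within them Syn1, a synaptic vesicle protein gene, had 98 and 45 counts in OGD libraries and 2 and 1 in control libraries (adjusted p = 0.185 in edgeR), while Gria2, a glutamate receptor gene, had 187 and 222 in OGD libraries and 223 and 275 in control libraries. Fibroblast names were represented by Col1a1 alone, at 124 and 247 CPM in OGD libraries 1 and 2 and 114 and 276 CPM in control libraries 1 and 2. Microglia names, with 3 of 6 listed, summed to 9.80 to 42.5 CPM in OGD libraries and 23.7 to 40.2 CPM in control libraries. Within them Tyrobp had 12 and 29 counts in OGD libraries and 5 and 8 in control libraries. Ptprc had 13 and 71 in OGD libraries and 58 and 91 in control libraries, and Aif1 at most 2 in any library. Oligodendrocyte and endothelial names stayed under 5 CPM in every library. The part of other cell types in the results below was not tested, and in bulk RNA fewer cells of a type and less RNA per cell cannot be told apart.

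No cytoskeleton, motor or adhesion locus passed the adjusted threshold between OGD and control. Of the 107 loci, 67 had enough counts to be tested, and 0 had an adjusted p under 0.05 by edgeR's quasi-likelihood test, against 0.0835% of all 9581 loci tested. At an unadjusted p under 0.05, 2 of the 67 were higher after OGD (Phldb3 and Daam1), against 1.23% of all loci. A further 3 were lower (Adam23, Dst and Plxnb2), against 1.1% of all loci. DESeq2 called Phldb3 and Adam23, that is 2 of the 65 members to which it gave an adjusted p, against 0.404% of all loci. The median log2 fold change was 0.0087 for the 67 members and -0.0018 for all loci. Among the 67, the OGD and control values did not overlap at 13 members that were higher after OGD and at 12 that were lower, or 19.4% and 17.9%, and each direction held 14.0% of all loci. A fitted change of at least 2-fold was seen at 5 of the 67, against 4.43% of all loci.

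**Figure D1:**
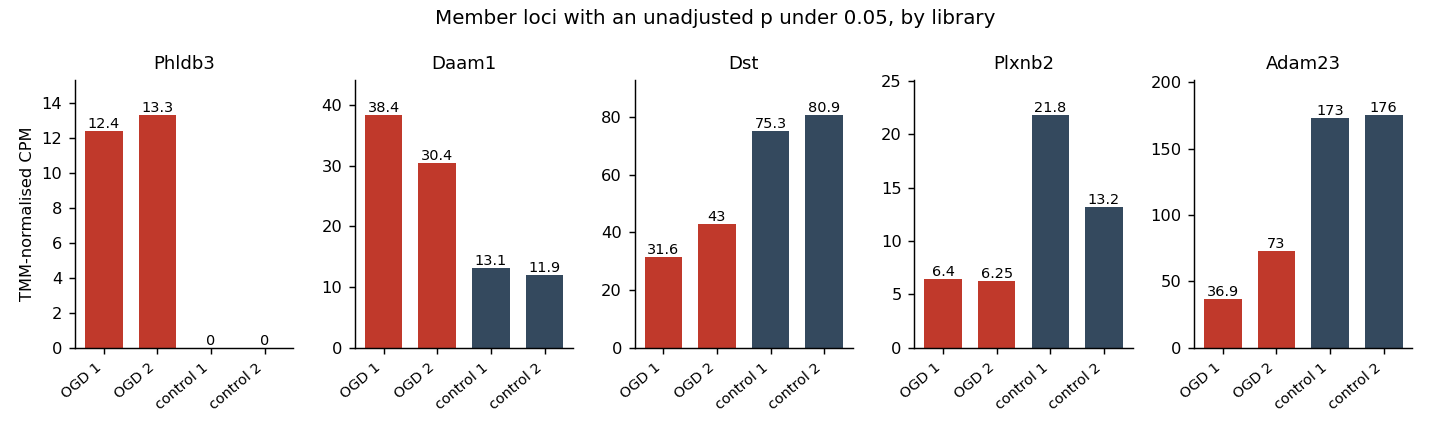
Level of the 5 loci with an unadjusted p under 0.05 in each library, in TMM-normalised CPM, with OGD libraries in red and control libraries in blue. Bars are single libraries. Phldb3 is at 0 in both control libraries, and at Adam23 the OGD libraries differ from each other more than the control libraries do.

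Phldb3, on chromosome 1 from 81474052 to 81480016, encodes a pleckstrin homology-like domain protein of the family that includes the microtubule-anchoring LL5 proteins. Its transcript NONRATT000472.2 had 33 and 32 counts in OGD libraries and 0 in both control libraries. Against a floor of 3 counts over the control group, it was at least 22.5-fold higher after OGD, and its unadjusted p in edgeR was 0.000697 (adjusted p = 0.247). The 2 OGD libraries were nearly equal, and the locus entered the test only through them. DESeq2 gave an adjusted p of 0.00215.

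Daam1, on chromosome 6 from 94611173 to 94736113, encodes a formin that builds linear actin filaments downstream of Wnt signalling. It had 102 and 73 counts in OGD libraries and 36 and 30 in control libraries, or 34.4 ± 5.65 and 12.5 ± 0.812 CPM (SD, n = 2 each). The groups did not overlap, and the log2 fold change was 1.46 (SE 0.28, adjusted p = 0.90 in edgeR). The difference lay in 1 of its 2 transcripts. NONRATT024378.2, spliced over 31520 bases, had 94 and 71 counts in OGD libraries and 31 and 14 in control libraries. NONRATT024382.2, a single block of 544 bases at the other end of the locus, had 8 and 2 counts in OGD libraries and 5 and 16 in control libraries, and its groups overlapped.

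Adam23, on chromosome 9 from 70282459 to 70293310, encodes an ADAM protein without protease activity that acts in cell adhesion and binds LGI1 in the brain. Its transcript NONRATT030108.2 had 98 and 175 counts in OGD libraries and 476 and 441 in control libraries. That is 54.9 ± 25.5 CPM after OGD and 174.5 ± 1.76 CPM in control (SD, n = 2 each), with no overlap. The log2 fold change was -1.67 (SE 0.37, adjusted p = 1.00 in edgeR), and DESeq2 gave an adjusted p of 0.0357. OGD libraries 1 and 2 stood apart at 36.9 and 73.0 CPM, and the log2 fold change lay between -2.24 and -1.24 when a library was left out.

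Dst, on chromosome 9 from 37903251 to 37904724, encodes dystonin, a spectraplakin that ties actin and microtubules to intermediate filaments. It had 84 and 103 counts in OGD libraries and 207 and 203 in control libraries, or 37.3 ± 7.99 and 78.1 ± 3.92 CPM (SD, n = 2 each). Both OGD values lay below both control values. The log2 fold change was -1.07 (SE 0.25, adjusted p = 1.00 in edgeR). Its unadjusted p of 0.00814 was above 0.05 without OGD replicate 1.

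Plxnb2, on chromosome 7 from 130138898 to 130146350, encodes plexin B2, a receptor of class 4 semaphorins that signals to small GTPases. It had 17 and 15 counts in OGD libraries and 60 and 33 in control libraries, without overlap, and the fold change was -1.46 on the log2 scale (SE 0.40, adjusted p = 1.00 in edgeR). Both of its transcripts were lower after OGD. NONRATT027228.2 had 6 counts in each OGD library and 20 in each control library, and NONRATT027229.2 had 11 and 9 in OGD libraries and 40 and 13 in control libraries. The unadjusted p was 0.0153, and it was above 0.05 without control replicate 1 or without either OGD replicate. Phldb3, Daam1, Adam23, Dst and Plxnb2 overlapped no transcript of another listed locus.

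**Figure D2:**
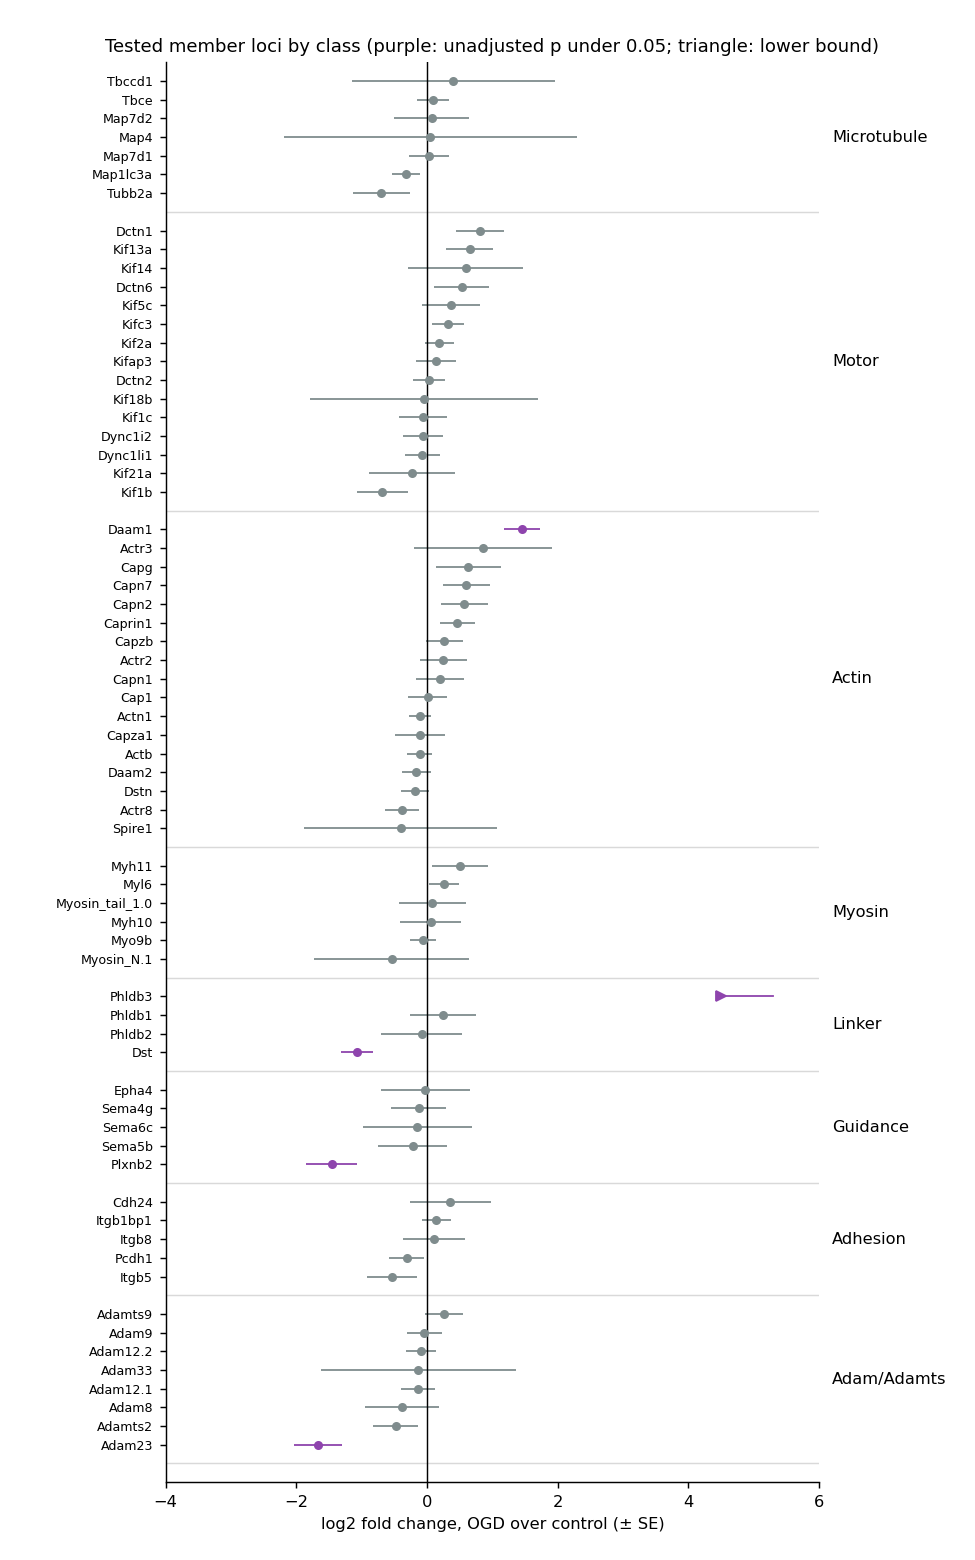
Log2 fold change, OGD over control, of the 67 tested loci by class, with approximate standard errors from edgeR. The triangle at Phldb3 is the lower bound against the floor of 3 counts, and purple marks an unadjusted p under 0.05. Most loci lie close to 0, and wide bars at Map4, Spire1, Kif18b, Tbccd1 and Adam33 go with unequal replicates.

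Microtubule proteins were represented by 10 loci, 7 of them tested, 0 past the adjusted threshold and 0 at an unadjusted p under 0.05. Their fitted log2 fold changes ran between -0.70 and 0.40. Map4 (chromosome 8, 118155696 to 118158370), a microtubule-stabilising protein gene, had the highest mean CPM of the class and the most uneven libraries. It had 382 and 2 counts in OGD libraries 1 and 2 and 382 and 2 in control libraries 1 and 2. Within each replicate number, OGD and control counts were thus equal, whereas the replicate numbers differed widely. Tbce (chromosome 17, 54018456 to 54029037), a tubulin-folding cofactor gene, had 135 and 131 counts in OGD libraries and 157 and 106 in control libraries. Its control libraries differed more than its OGD libraries, at 57.1 and 42.2 CPM against 50.9 and 54.6 CPM. Its 4 transcripts did not all differ in 1 direction, and 1 of them, NONRATT012509.2, shares bases with a transcript of another listed locus: NONRATT012508.2 had 70 and 49 counts in OGD libraries and 58 and 41 in control libraries, and NONRATT012509.2 26 and 27 in OGD libraries and 45 and 33 in control libraries. Tubb2a, a beta tubulin gene, had 13 and 16 counts in OGD libraries and 20 and 29 in control libraries, without overlap (log2 fold change -0.70, SE 0.43). Tubulin and actin genes have near-identical copies in the genome, and how reads shared by copies were counted is not given in the sources used here, so values at Tubb2a, Tuba1b and Actb are uncertain. Map1lc3a, which encodes an autophagosome protein despite its name, had 106 and 111 counts in OGD libraries and 146 and 136 in control libraries, without overlap (log2 fold change -0.32, SE 0.21). Tubb2a and Map1lc3a were the only 2 of the 7 tested without overlap, where each direction held 14.0% of all loci.

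Motor loci of the kinesin, dynein and dynactin families numbered 23, with 15 tested, 0 past the adjusted threshold and 0 at an unadjusted p under 0.05. Of the 15, 9 had a fitted log2 fold change above 0 and 6 below 0. The summed level of the class was 352 and 341 CPM in OGD libraries and 331 and 307 CPM in control libraries. Among the 15 tested, groups did not overlap at 5 loci that were higher after OGD and at 1 that was lower, where each direction held 14.0% of all loci. Kif23, a mitotic kinesin gene with too few counts to be tested, had 3 counts in each OGD library and 2 and 0 in control libraries. Dctn1, the gene of the dynactin subunit p150Glued, was the largest of the 5, with 32 and 43 counts in OGD libraries and 26 and 19 in control libraries (log2 fold change 0.81, SE 0.37, unadjusted p = 0.0834 in edgeR). Kif13a, an endosomal kinesin gene, had 66 and 91 counts in OGD libraries and 44 and 60 in control libraries (log2 fold change 0.65, SE 0.36). Dctn6, Kifc3 and Kif2a were the others, at 0.53, 0.33 and 0.19. Both transcripts of Kif2a share bases with a transcript listed at Dimt1. Kif1b, a kinesin gene for mitochondria and synaptic vesicle precursors, was lower after OGD without overlap, with 21 and 17 counts in OGD libraries and 26 and 37 in control libraries (log2 fold change -0.68, SE 0.39).

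The motor loci with the highest mean CPM were close to level between the groups. Dync1li1 (chromosome 8, 122761156 to 122777462), for a dynein light intermediate chain, had 66.2 ± 12.6 CPM after OGD and 69.5 ± 15.5 CPM in control (SD, n = 2 each). Dctn2 (chromosome 7, 70556003 to 70564766), for dynamitin, had 53.45 ± 10.7 and 52.5 ± 5.78 CPM in OGD and control libraries (SD, n = 2 each). Each difference was smaller than the SD within the groups. Among mitotic kinesins, Kif18b had 14 and 0 counts in OGD libraries 1 and 2 and 15 and 0 in control libraries 1 and 2, and Kif14 had 38 and 14 in OGD libraries and 31 and 5 in control libraries. Both were higher in replicate number 1 than in number 2 in either group. Kif2c and Kif19a were at 0 in all 4 libraries.

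Actin and its regulators gave 19 loci, with 17 tested, 0 past the adjusted threshold, and Daam1 alone at an unadjusted p under 0.05. The class sum was 681 and 689 CPM in OGD libraries and 710 and 641 CPM in control libraries, so the OGD values lay within the control range. Actn1 (chromosome 6, 103376673 to 103379531), for the cross-linker alpha-actinin, had 228 ± 8.77 CPM after OGD and 245 ± 4.23 CPM in control (SD, n = 2 each). Actb (chromosome 12, 13715876 to 13717496), for beta actin, had 84.3 ± 4.64 CPM after OGD and 91.2 ± 3.96 CPM in control (SD, n = 2 each). Both were lower after OGD without overlap, by 0.10 and 0.11 on the log2 scale, less than their standard errors of 0.17 and 0.19. Dstn, for the actin-severing protein destrin, and Actr8, for an actin-related subunit of the INO80 chromatin remodeller, were the other loci below control without overlap, at log2 fold changes of -0.18 and -0.39.

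Of the other actin loci, Capn7, Capn2, Caprin1 and Capzb were above control without overlap, as Daam1 was. Among the 17 tested actin loci, groups did not overlap at 5 above and 4 below control, where each direction held 14.0% of all loci. Capn7 and Capn2 encode calpain proteases, and Caprin1, an RNA-binding protein gene, shares only its prefix with the capping proteins. Capn2 had 20 counts in each OGD library and 15 and 13 in control libraries (log2 fold change 0.57, SE 0.36). At Capn7, transcript NONRATT011288.2 had 8 and 11 counts in OGD libraries and 0 and 1 in control libraries, while the other two transcripts of the locus had 2 to 10 counts in OGD libraries and 4 to 11 in control libraries. Caprin1 had 85 and 75 counts in OGD libraries and 54 and 66 in control libraries (log2 fold change 0.46, SE 0.27), and Capzb, for the beta subunit of capping protein, had 48 and 39 in OGD libraries and 37 and 38 in control libraries.

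Daam2, the formin gene related to Daam1, had 220 and 188 counts in OGD libraries and 277 and 200 in control libraries, with overlap (log2 fold change -0.16, SE 0.22). Its minor transcript NONRATT029141.2 had 13 and 10 counts in OGD libraries and 26 and 21 in control libraries. With transcripts tested as deposited, its fold change was -0.97 on the log2 scale (SE 0.36, adjusted p = 1.00 in edgeR). The main transcript NONRATT029143.2 stood at -0.10 (SE 0.23) in the same test.

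**Figure D3:**
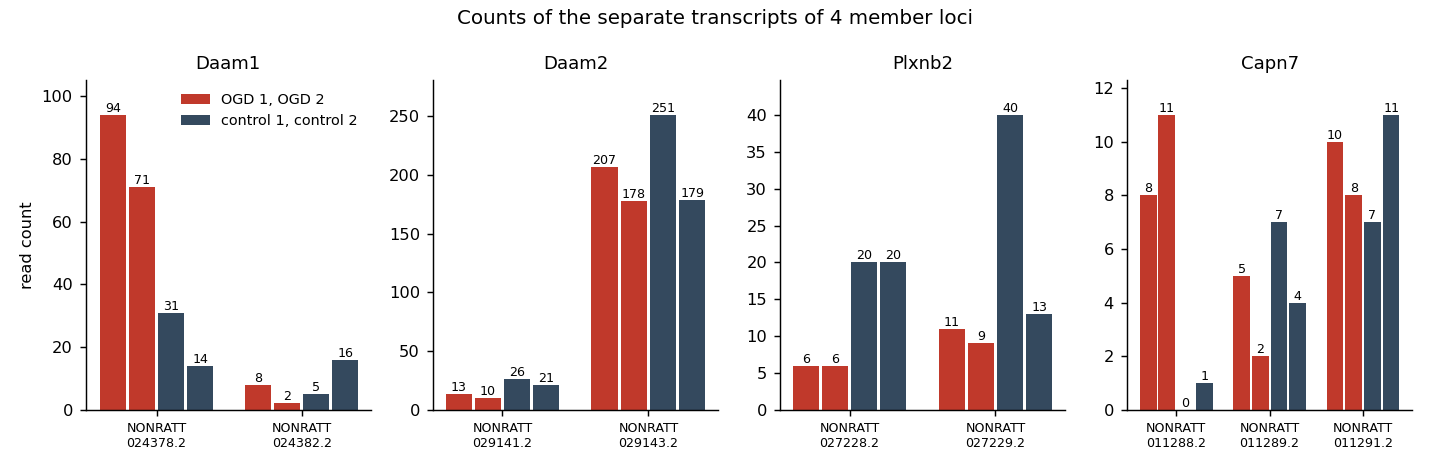
Read counts of each listed transcript at Daam1, Daam2, Plxnb2 and Capn7, in OGD libraries 1 and 2 (red) and control libraries 1 and 2 (blue). At Daam1 the higher counts after OGD are in NONRATT024378.2, and at Plxnb2 both transcripts are lower after OGD.

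Myosin names gave 15 loci, of which 6 were tested, with 0 past the adjusted threshold and 0 at an unadjusted p under 0.05. Myo9b (chromosome 16, 19749255 to 19754064), an unconventional myosin gene, took 72.0% of the summed CPM of the class. It had 878 counts in each OGD library and 884 and 1018 in control libraries, a log2 fold change of -0.06 (SE 0.20). Myl6 (chromosome 7, 2908070 to 2909135), for the essential light chain of non-muscle myosin, had 201 and 142 counts in OGD libraries and 152 and 144 in control libraries (log2 fold change 0.26, SE 0.22). The locus Myosin_tail_1.0 (chromosome 10, 852214 to 859183), named after a protein domain, followed the replicate number, with 161 and 58 counts in OGD libraries 1 and 2 and 134 and 79 in control libraries 1 and 2. Myh10, for non-muscle myosin IIB, was nearly constant at 10 and 11 counts in OGD libraries and 9 and 12 in control libraries. Myh11, for the smooth muscle myosin heavy chain, had 32 and 58 counts in OGD libraries and 36 and 31 in control libraries, with overlap (log2 fold change 0.50, SE 0.43). Other names of muscle genes had few counts: Mylk reached 9 counts, Myh7b 5, Myom1 4, and Myog and Myl7 1 in any library.

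The linker class held 4 loci, Dst, Phldb1, Phldb2 and Phldb3, and all 4 were tested. Only Phldb3 of the Phldb genes differed without overlap. Phldb2 (chromosome 11, 57460425 to 57460807), the gene of LL5 beta, which anchors microtubule ends near focal adhesions, had 187 and 355 counts in OGD libraries 1 and 2 and 162 and 433 in control libraries 1 and 2. Phldb1, the LL5 alpha gene, had 98 and 168 counts in OGD libraries 1 and 2 and 78 and 156 in control libraries 1 and 2. In both genes replicate number 2 was higher than number 1 in either group, as it was for Col1a1. The members of this family differed widely in level. Per transcript length, Phldb2 stood at 28.3 ± 12.4 FPKM after OGD and 29.9 ± 18.3 FPKM in control, and Phldb1 at 6.10 ± 2.26 FPKM after OGD and 5.18 ± 2.26 FPKM in control (SD, n = 2 each). Phldb3 reached 1.38 and 1.33 FPKM in the OGD libraries and was listed at 0 in control libraries.

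Guidance receptors and ligands gave 11 loci, with a summed level of 44.45 and 35.4 CPM in OGD libraries and 69.15 and 43.8 CPM in control libraries. Of these, 5 were tested and 0 passed the adjusted threshold. All 5 had a fitted log2 fold change below 0, but apart from Plxnb2 the values lay between -0.22 and -0.03, within their standard errors. Sema5b (chromosome 11, 68430361 to 68435109), for a transmembrane semaphorin, had 40 and 17 counts in OGD libraries 1 and 2 and 46 and 23 in control libraries 1 and 2. Sema6c had 26 and 7 counts in OGD libraries and 30 and 8 in control libraries. Both Sema5b and Sema6c were higher in replicate number 1 in either group. All 4 transcripts of Sema6c lie within the span of MSTRG.17789.3, a transcript of another listed locus. That transcript had 96 and 108 counts in OGD libraries and 125 and 143 in control libraries. Epha4, for an ephrin receptor of astrocytes and neurons, had 5 and 11 counts in OGD libraries and 6 and 11 in control libraries.

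Integrin, cadherin and protocadherin names gave 14 loci, with 5 tested, 0 past the adjusted threshold and 0 at an unadjusted p under 0.05. Itgb8 (chromosome 6, 147089280 to 147172348), the gene of the astrocyte integrin subunit that helps activate TGF-beta, took 67.5% of the summed CPM of the class. It had 1061 and 414 counts in OGD libraries 1 and 2 and 906 and 513 in control libraries 1 and 2. The gap between replicate numbers thus exceeded that between the groups, and the log2 fold change was 0.10 (SE 0.47). Itgb1bp1 (chromosome 6, 43348934 to 43363617), for a regulator that binds the tail of integrin beta 1, had 77.2 ± 11.3 CPM after OGD and 70.0 ± 5.83 CPM in control (SD, n = 2 each). Itgb5 had 73 and 39 counts in OGD libraries and 71 and 95 in control libraries, with overlap (log2 fold change -0.54, SE 0.38). Pcdh1, a protocadherin gene, was lower after OGD without overlap, with 42 and 45 counts in OGD libraries and 59 and 54 in control libraries (log2 fold change -0.31, SE 0.27). The other 3 protocadherin loci had too few counts to be tested. Their counts were higher in OGD libraries, but at so few counts a lack of overlap carries little weight. The share of 14.0% of all loci without overlap in each direction covers tested loci only and does not apply to them. Pcdh9 had 8 counts in each OGD library and 4 and 3 in control libraries, Pcdhb22 had 5 in each OGD library and 1 and 4 in control libraries, and Pcdh12 had 3 and 2 in OGD libraries and 1 in each control library. The integrin alpha loci Itga7 and Itga11 had 1 count in each library.

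ADAM and ADAMTS names gave 11 loci, with 8 tested and 0 past the adjusted threshold. Adam12.1 (chromosome 1, 205951845 to 205953876), a single block of 2032 bases at a metalloprotease gene, took 88.4% of the summed CPM of the class and 54.3% of that of all 107 members. It had 7217 and 8929 counts in OGD libraries 1 and 2 and 8235 and 10337 in control libraries 1 and 2, a log2 fold change of -0.14 (SE 0.26). Adam12.2, listed on the same chromosome from 205955938 to 205956458, had 526 and 619 counts in OGD libraries and 599 and 679 in control libraries (log2 fold change -0.10, SE 0.23). Both were highest in control library 2 and lowest in OGD library 1, and in both the groups overlapped. Per transcript length they had the highest FPKM of all members, at 159 ± 23.5 and 178 ± 21.6 FPKM for Adam12.1 in OGD and control libraries and 44.0 ± 4.95 and 47.8 ± 2.36 FPKM for Adam12.2 (SD, n = 2 each). Without Adam12.1 the class summed to 374 ± 64.3 CPM after OGD and 514 ± 37.8 CPM in control (SD, n = 2 each), a gap that includes the counts of Adam23. Adamts2, for the protease that trims procollagen, had 18 and 19 counts in OGD libraries and 30 and 24 in control libraries, without overlap (log2 fold change -0.48, SE 0.34). Adamts9 had 47 and 35 counts in OGD libraries and 36 and 35 in control libraries. Among the 8 tested, groups did not overlap at 1 locus above and 2 below control, where each direction held 14.0% of all loci.

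**Figure D4:**
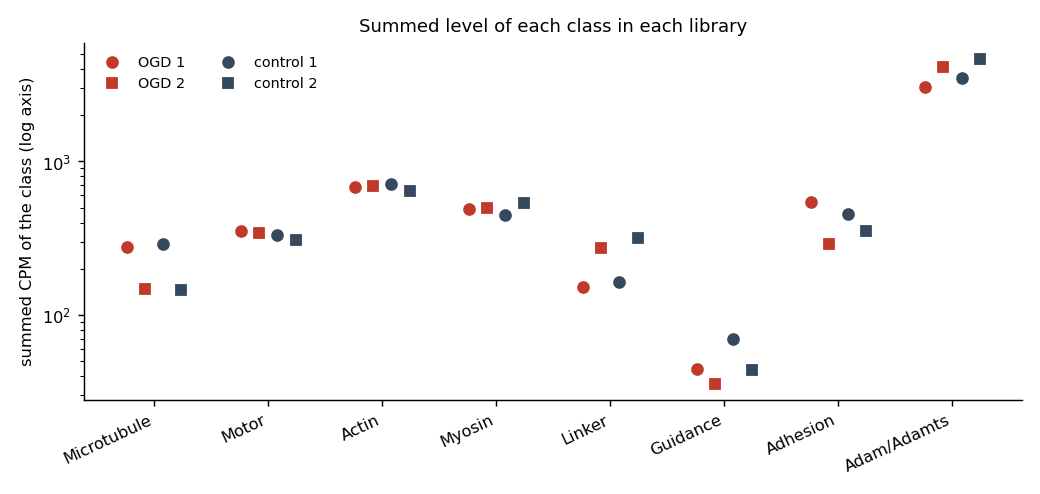
Summed CPM of each class in each library on a log axis, with circles for replicate number 1 and squares for number 2. By their means, the 2 replicate numbers lie farther apart than OGD and control in every class but the motor class, and only narrowly so in the guidance class.

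Some loci had a wide gap between libraries of the same group. Among loci at 3 counts or fewer in a pair of libraries and 30 or more in each of the others, Phldb3 divided by group and Map4 and Spire1 by replicate number. Spire1 (chromosome 18, 63239371 to 63240162), for an actin nucleator, had 32 and 2 counts in OGD libraries 1 and 2 and 45 and 2 in control libraries 1 and 2. The loci Tbccd1, Actr3 and Adam33 were picked out after their values were seen. Tbccd1 had 2 and 31 counts in OGD libraries 1 and 2 and 1 and 25 in control libraries 1 and 2. At Actr3, for a subunit of the Arp2/3 complex, a single library stood apart, with 81 and 92 counts in OGD libraries and 97 and 6 in control libraries 1 and 2. Adam33 had 0 and 47 counts in OGD libraries 1 and 2 and 16 and 39 in control libraries 1 and 2. Its whole span of 2027 bases is shared with another listed transcript, NONRATT019701.2. That transcript had 0 and 12 counts in OGD libraries 1 and 2 and 4 and 13 in control libraries 1 and 2. What the replicate number marks is not given in the labels, and its part in these values was not tested.

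**Figure D5:**
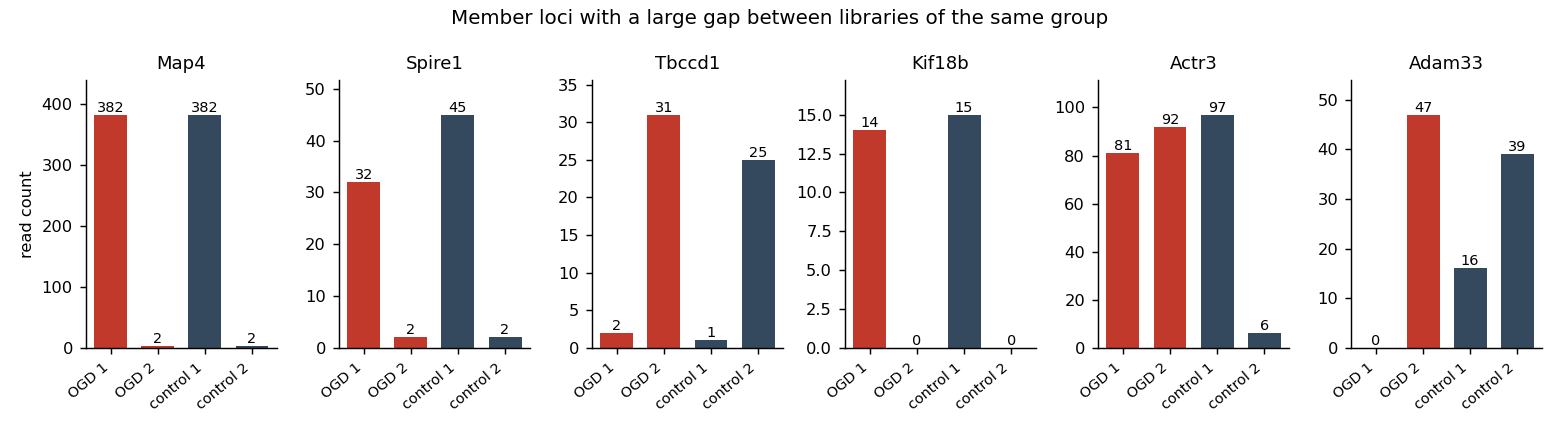
Read counts by library of 6 loci with a large gap between libraries of the same group, OGD in red and control in blue. Map4, Spire1, Tbccd1 and Kif18b follow the replicate number, Actr3 is low in control library 2, and Adam33 is at 0 in OGD library 1.

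The 40 loci that were not tested had too few counts, and 19 of all 107 had at most 3 counts in every library. Of the 153 transcripts, 49 were single blocks without introns in their coordinates, or 32.0%, against 44.6% of all listed transcripts. Their median length was 579 bases, against 686 for all listed transcripts. There were 30 loci with more than 1 transcript, and 17 loci overlapped a transcript of another listed locus. Further genes of the cytoskeleton and of adhesion, outside the prefixes, were counted from a list of 64 names. Of these, 32 had a listed locus, 25 were tested, and 0 passed the adjusted threshold or an unadjusted p of 0.05 in edgeR, with 14 above and 11 below 0. Flna, for the actin cross-linker filamin A, had 826 and 794 counts in OGD libraries and 782 and 532 in control libraries, and Lims1, for an adaptor at focal adhesions, had 37 and 33 in OGD libraries and 78 and 44 in control libraries.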

How the data were processed

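RNA sequencing tables of 4 libraries, 2 OGD and 2 control by their labels, were used. The authors deposited whole-number read counts and FPKM (per transcript length and library total) for each listed lncRNA transcript, per the file headers. HISAT2, StringTie and the build mm9 are named in the submitters' processing notes. Which program counted reads, and whether by strand, is not stated in those notes or headers. The tables list 20 numbered chromosomes and reach 282490960 on chromosome 1, so coordinates are printed as listed, without a build, and reads of antisense or overlapping genes could be shared.

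Rows were summed per gene name and chromosome. edgeR 4.0.16 in R 4.3.3 was fitted to all loci (filterByExpr, TMM, quasi-likelihood F test on group alone, Benjamini-Hochberg threshold 0.05 over 9581 loci). CPM are TMM-normalised. Each standard error is the size of the log2 fold change over the root of its F value. FPKM of a locus are summed over its transcripts. The floor of 3 counts over a group covers counting error only. The steps were tested on simulated data. Alternatives were DESeq2 1.42.0, other scalings, filters and thresholds, transcripts as deposited, other name rules, a block for replicate number, and leaving out libraries in turn.

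The members and lists were chosen with earlier results of these data known. The text names loci past the threshold or at an unadjusted p under 0.05, the 2 of highest mean CPM per class, those at 3 counts or fewer throughout a group or replicate number and 30 or more elsewhere, and those whose transcripts of at least 20 mean counts differ in direction; others are named as further examples, chosen after their values were seen. Figures were drawn with matplotlib 3.10.9.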

Additional observations from a re-analysis of the deposited data

How the results depend on the processing

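The count of 0 members past the threshold became 2 with DESeq2 (Phldb3 and Adam23) and 5 when 2-fold or more and an unadjusted p under 0.05 were asked instead, and was 0 under the other alternatives, each library left out included. Over all loci 8 passed, against 38 with DESeq2, 0 without the low-count filter (403 at an unadjusted p under 0.05), 1 with transcripts as deposited, 159 by that fold and unadjusted p, and 0 to 12 with a library left out, where the lone library is assumed to vary like the other group. Why the counts shift was not tested. With the replicate block 21 loci passed, 0 of them members, and Kif13a joined the members at an unadjusted p under 0.05. What the number stands for is not labelled. Deviations from the group mean correlated between libraries of 1 number at 0.30 over 9581 loci and 0.818 over the 67 members. Loci with large gaps weigh most in such a correlation, and Map4, Spire1, Tbccd1 and Kif18b are among the 67. The correlation without them was not computed, so the 2 values do not show that members in general follow the number more. The same block put Myosin_tail_1.0 at -0.017 and Phldb2 at 0.013 on the log2 scale. Of 221 values of named loci under alternatives, 26 had the opposite sign to the main fit, in which no member had passed. Another 2 passed where they had not. The other 193 kept their sign and did not pass, but their size could differ. Map4, counted among them, had a log2 fold change of 0.05 in the main fit and 6.42 without control replicate 1. With a library left out, log2 fold changes lay between -0.39 and 0.11 for Adam12.1, -0.30 and 0.092 for Adam12.2, -0.18 and 0.22 for Dctn2, -0.28 and 0.18 for Dync1li1, -0.0026 and 0.28 for Itgb1bp1, -0.61 and 0.58 for Itgb8, -6.29 and 6.42 for Map4, -0.21 and 0.12 for Myo9b, -0.71 and 0.60 for Myosin_tail_1.0, -0.72 and 0.90 for Phldb2, -0.85 and 0.28 for Sema5b, -3.28 and 2.96 for Spire1, and -0.11 and 0.33 for Tbce. Adam23, Dst and Plxnb2 were lower and Daam1 and Phldb3 higher after OGD in each alternative where they were fitted. Matching names in any case (71 tested) and leaving out names such as calpains and Caprin1 (61 tested) re-read the same fit. Each gave 2 higher and 3 lower at an unadjusted p under 0.05. The names left out held none of Adam23, Dst, Plxnb2, Daam1 and Phldb3, so that rule could not change these counts. With 2 libraries per group an exact permutation test cannot go below 0.33.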
